A study of Mus musculus with 9 samples.

Results

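The MHC class II genes of the mouse hippocampus were followed in 9 RNA sequencing libraries. The rows of the deposited gene count table named Cd74, H2-Aa, H2-Ab1, H2-Eb1, Ciita and H2-DMa were taken, which are 6 of 54532 genes, and all 6 were among the 19782 genes that passed the filter on low counts. The libraries came from N4 Ube3am-/p+ mice, a model of Angelman syndrome in which the maternal copy of Ube3a is null (Ube3a tm1alb/J) after 4 backcrosses to 129Sv/Ev. The Ant-134 group of 5 mice was injected into a cerebral ventricle on postnatal day 21 with an antagomir, an antisense oligonucleotide that silences the microRNA miR-134, and the Scr group of 4 mice was injected with a scrambled oligonucleotide, both at 0.5 nmol. All mice of both groups shared the genotype, the injection, audiogenic seizure tests on days 22, 24 and 26, and removal of tissue on day 27. No uninjected, untested or wild-type mouse therefore stands in these values. The paper reported less severe seizures with Ant-134 on this schedule, and survival that tended to be better. Treatment and seizure history cannot be told apart in these values. Each library was made from the homogenate of 1 ipsilateral hippocampus of 1 mouse, and the replicates are therefore separate animals.

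MHC class II molecules present peptides from the endosome to CD4 T cells. The alpha chain H2-Aa pairs with the beta chain H2-Ab1, H2-Eb1 is the beta chain of the second class II isotype, Cd74 is the invariant chain that guides new class II molecules to the endosome, and H2-DMa is a subunit of the editor that loads the peptide. Ciita is the co-activator that switches these genes on, usually after interferon gamma has acted on the cell, with Irf1 among the factors involved. In the brain most class II protein is carried by border-associated macrophages, dendritic cells and other leukocytes of the meninges and choroid plexus, while resting microglia carry little.

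The class II genes were measurable in every hippocampus and did not separate the groups. Between 28583298 and 41978113 reads were counted on genes per library. The lowest count of a class II gene was 89, for H2-Eb1 in Ant-134 replicate 3, and the highest was 1734, for Cd74 in Scr replicate 4. Each level below is in CPM, the count of a gene relative to the normalised total of its library, where a floor of 3 counts came to between 0.0709 and 0.107 CPM, a limit that covers counting error only. The neuronal genes listed as markers of the tissue summed to 1741 to 1941 CPM (Ant-134) and 1666 to 1772 CPM (Scr), and all 6 of them passed the filter, with 1 higher with Ant-134 (Snap25). That sum was 1903 CPM in Ant-134 replicate 3, the library with the least Cd74, and 1741, 1819 and 1700 CPM in Ant-134 replicates 5 and 2 and Scr replicate 4, those with the most, and its part in the class II values was not tested. The mature microRNA that Ant-134 targets is not measured by these counts of poly-A-selected mRNA, so its knockdown was not checked here.

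The proximal promoters of the class II chains are shown because the X and Y boxes in them are where the complex that recruits Ciita assembles. On GRCm38, the genome build of the count table, H2-Aa lies at chr17:34282744-34287827 on the minus strand, H2-Ab1 at chr17:34263209-34269418, H2-Eb1 at chr17:34305877-34316199 and H2-DMa at chr17:34135182-34139101, the last 3 on the plus strand. Ciita lies at chr16:10480059-10528418 on the plus strand. RefSeq promoter entries of GRCm38.p6 whose start lay within 500 bases of the deposited gene start were matched for 2 of the 6 genes, H2-Aa and H2-Eb1. The 150 bases before the RefSeq start are given 5′ to 3′ on the gene's own strand, at chr17:34287824-34287973 for H2-Aa and chr17:34305717-34305866 for H2-Eb1. The beta chain of the peptide editor, H2-DMb1, is set beside them at chr17:34153041-34153190. Capitals mark the core of the X box and, after it, the core of the Y box, an inverted CCAAT.
H2-Aa: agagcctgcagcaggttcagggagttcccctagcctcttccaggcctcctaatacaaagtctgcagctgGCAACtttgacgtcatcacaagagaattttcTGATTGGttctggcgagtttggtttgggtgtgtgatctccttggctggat
H2-Eb1: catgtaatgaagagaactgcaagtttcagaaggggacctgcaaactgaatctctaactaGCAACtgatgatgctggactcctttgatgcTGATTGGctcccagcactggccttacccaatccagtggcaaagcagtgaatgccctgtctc
H2-DMb1: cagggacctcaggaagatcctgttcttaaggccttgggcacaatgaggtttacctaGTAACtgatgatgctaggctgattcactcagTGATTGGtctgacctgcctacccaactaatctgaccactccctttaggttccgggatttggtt

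The letters searched were GCAAC for the X box and TGATTGG for the Y box, on either strand, and they were chosen with these sequences in view. The Y core began 50 bases before the start of H2-Aa, 61 bases before that of H2-Eb1 and 63 bases before that of H2-DMb1, and 25 or 26 bases separated it from the X core. In H2-Aa the letters TGACGTCA of the X2 box, a cyclic AMP response element held by 1.55% of promoter entries, closely follow the X core in the printed run. Of all 32851 promoter entries, 29.9% held GCAAC and 7.23% held TGATTGG in the 250 bases before the start, and 0.256% held GCAAC followed after 15 to 45 bases by TGATTGG. That pair was present in H2-Aa and H2-Eb1, and among the other class II genes in H2-Eb2, H2-Oa and H2-Ob, whereas H2-DMb1 had GTAAC in the place of the X core. None of the 5 other genes of the region with a matched entry (Brd2, Btnl2, Psmb8, Psmb9 and Tap1) held the pair. A match describes letters and is not a measured binding site, and the printed runs are those of the reference genome, not of the 129Sv/Ev background.

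On a scale that allows genes to be compared, FPKM (counts scaled to library size and to gene length), Cd74 was the most abundant of the 6 at 19.6 ± 8.30 FPKM (SD, n = 9). It exceeded H2-DMa, at 9.54 ± 0.742 FPKM, in 9 of 9 libraries (two-sided exact sign-flip test, p = 0.00391, adjusted over the 5 neighbouring pairs p = 0.00977). H2-DMa was higher than H2-Ab1, at 7.35 ± 4.16 FPKM, in 7 of 9 libraries, and this pair did not pass (exact p = 0.0547). H2-Ab1 and H2-Eb1, at 7.08 ± 3.93 FPKM, differed by a mean of 0.053 ± 0.168 on the log2 scale within libraries, less than the spread, with H2-Ab1 higher in 5 of 9 (exact p = 0.352). The alpha chain H2-Aa was lower, at 5.75 ± 3.09 FPKM, and lay below H2-Eb1 in 8 of 9 libraries (exact p = 0.00781, adjusted p = 0.0130 over the 5 pairs). Ciita had the lowest level at 0.456 ± 0.0747 FPKM, below H2-Aa in 9 of 9 libraries (exact p = 0.00391). Class II genes are polymorphic between strains, and how far reads of a 129Sv/Ev background mapped to the reference alleles was not tested, which bears on this order and on ratios between the genes.

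Cd74, the invariant chain, encoded on the plus strand of chromosome 18, was at 19.5, 36.6, 12.7, 19.1 and 37.0 CPM in Ant-134 replicates 1 to 5 and at 24.9, 21.2, 29.2 and 50.8 CPM in Scr replicates 1 to 4. The highest library was a Scr mouse and the lowest an Ant-134 mouse, but Ant-134 replicates 2 and 5 stood above 3 of the 4 Scr libraries, and the groups overlapped. The means were 25.0 ± 11.1 CPM (SD, n = 5) and 31.5 ± 13.3 CPM (SD, n = 4). The log2 fold change of Ant-134 against Scr was -0.33 (standard error 0.41, edgeR's quasi-likelihood test, unadjusted p = 0.443, Benjamini-Hochberg adjusted p = 0.998). Its 95% confidence interval ran from -1.29 to 0.63, which is from 0.410 to 1.54 times the Scr level. In bulk tissue, fewer cells of a type and less RNA per cell cannot be told apart, here and for every gene below.

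**Figure D1:**
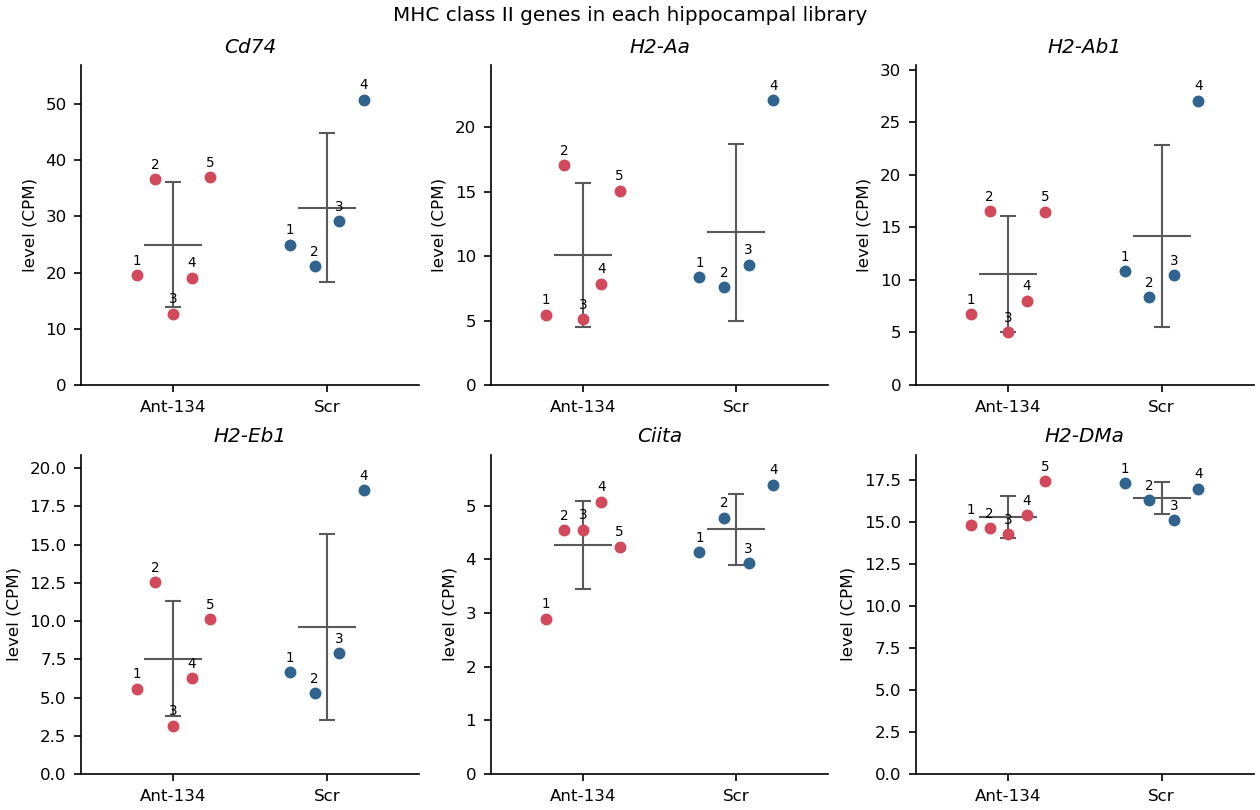
Level in CPM of the 6 MHC class II genes in each hippocampal library, with Ant-134 mice in red (n = 5) and Scr mice in blue (n = 4). Numbers are replicates, the long bar is the group mean and the error bar its SD. The groups overlap for all 6 genes, Ant-134 replicates 2 and 5 and Scr replicate 4 are the 3 highest libraries for Cd74 and the 3 chains, and H2-DMa is nearly level.

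H2-Aa, the alpha chain, was at 5.45, 17.1, 5.09, 7.86 and 15.1 CPM in Ant-134 replicates 1 to 5 and at 8.37, 7.59, 9.33 and 22.1 CPM in Scr replicates 1 to 4. The same 3 libraries were high as for Cd74, and the groups overlapped. The group means were 10.1 ± 5.60 (Ant-134) and 11.8 ± 6.88 CPM (Scr), a log2 fold change of -0.22 (standard error 0.51, unadjusted p = 0.682, edgeR).

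H2-Ab1, the beta chain that pairs with H2-Aa, was at 6.70, 16.6, 5.02, 8.02 and 16.5 CPM in Ant-134 replicates 1 to 5 and at 10.8, 8.32, 10.4 and 27.1 CPM in Scr replicates 1 to 4. Scr replicate 4 lay far above the other Scr mice, while Ant-134 replicates 2 and 5 were nearly equal to each other. The log2 fold change, -0.41 (standard error 0.51, unadjusted p = 0.445, edgeR), was the lowest of the 6 and within the spread between mice.

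H2-Eb1 was at 5.58, 12.6, 3.17, 6.26 and 10.1 CPM in Ant-134 replicates 1 to 5 and at 6.68, 5.27, 7.92 and 18.6 CPM in Scr replicates 1 to 4. Ant-134 replicate 3 was the lowest library, as for Cd74, H2-Aa and H2-Ab1. Its log2 fold change, -0.34 (standard error 0.51, unadjusted p = 0.527, edgeR), was also within the spread.

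H2-DMa, a subunit of the peptide editor, had a far narrower range, at 14.8, 14.6, 14.3, 15.4 and 17.4 CPM in Ant-134 replicates 1 to 5 and at 17.3, 16.3, 15.1 and 16.99 CPM in Scr replicates 1 to 4. Its means were 15.3 ± 1.25 CPM and 16.4 ± 0.973 CPM, and the groups overlapped through Ant-134 replicates 4 and 5. A log2 fold change of -0.10 was fitted (standard error 0.076, unadjusted p = 0.205, edgeR). The 95% confidence interval reached from 0.833 to 1.04 times the Scr level, the tightest bound among the 6 genes.

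Ciita, the co-activator, was at 2.89, 4.55, 4.56, 5.08 and 4.24 CPM in Ant-134 replicates 1 to 5 and at 4.14, 4.78, 3.93 and 5.39 CPM in Scr replicates 1 to 4. Only Ant-134 replicate 1 fell outside the range of the Scr group. A log2 fold change of -0.099 was fitted (standard error 0.16, unadjusted p = 0.548, edgeR), and its 95% confidence interval ran from 0.737 to 1.18 times the Scr level. On the opposite strand Ciita overlaps Dexi, which had 1009 to 1546 counts per library, and the sources used here do not state whether reads were counted by strand, so reads of both genes may be mixed where they overlap.

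By edgeR 0 of the 6 class II genes passed the unadjusted threshold of 0.05, by DESeq2's Wald test 0, and after Benjamini-Hochberg adjustment 0 by either tool. Among all genes tested by edgeR, 4.18% passed that threshold in either direction, 2.69% lower and 1.49% higher with Ant-134, and among those tested by DESeq2 2.74% passed. All 6 fold changes were below 0, with a median of -0.27 on the log2 scale against 0.0026 over all genes tested. Two-sided exact permutation tests over all assignments of mice to groups gave p values from 0.183 for H2-DMa to 0.651 for H2-Aa, where the smallest p this design allows is 0.00794. These p values do not show that the groups were alike, since the confidence intervals of H2-Aa, H2-Ab1 and H2-Eb1 still held changes from 0.325 to 1.98 times the Scr level.

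The direction of the chains rested on 1 Scr mouse. Without Scr replicate 4 the log2 fold changes were 0.27 for H2-Aa, 0.11 for H2-Ab1 and 0.20 for H2-Eb1, now above 0, and -0.0016 for Cd74. Without Ant-134 replicate 2 they were -0.50, -0.64, -0.61 and -0.51 in the same order. Ciita crossed 0 without Ant-134 replicate 1, at 0.013, while H2-DMa stayed between -0.15 and -0.077 whichever mouse was left out.

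**Figure D2:**
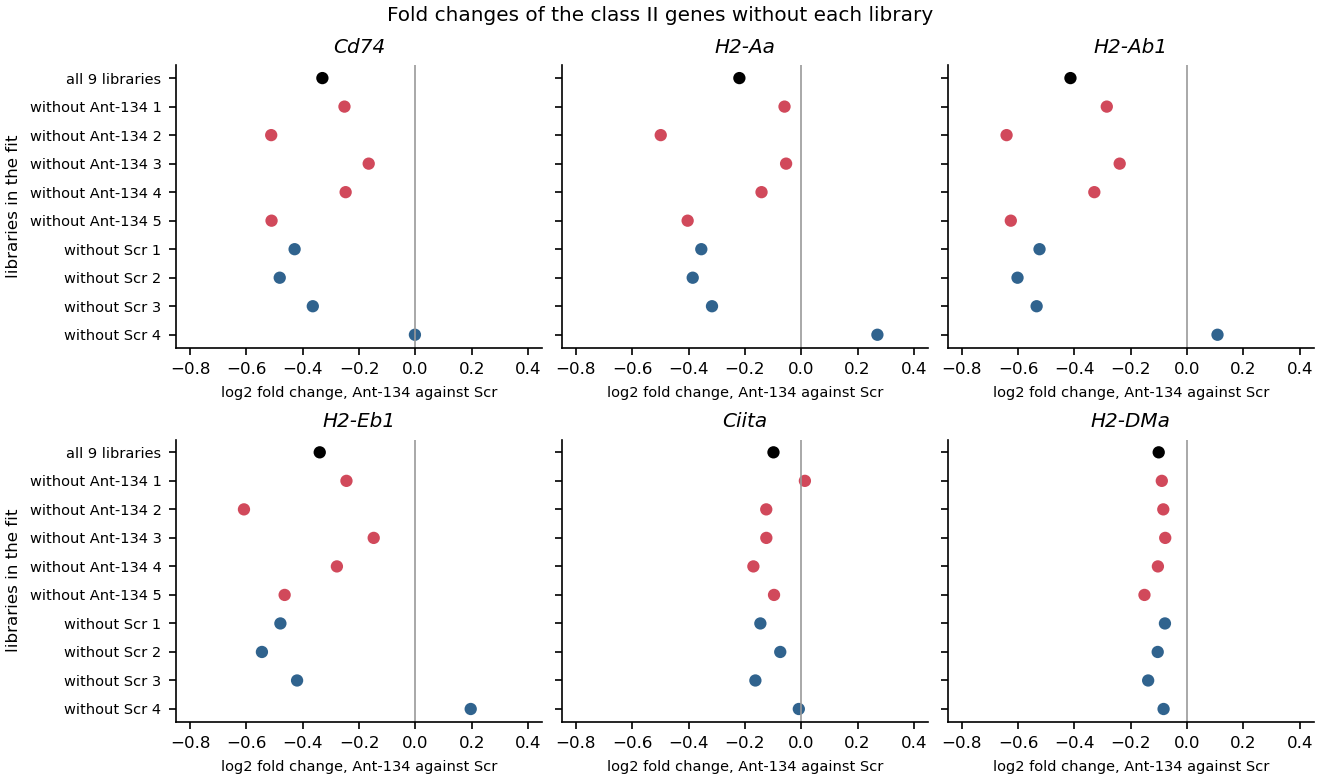
Log2 fold change of Ant-134 against Scr for each MHC class II gene with all 9 libraries (black) and without each Ant-134 (red) or Scr (blue) library in turn, from edgeR's quasi-likelihood fit. The vertical line is 0. Leaving out Scr replicate 4 takes H2-Aa, H2-Ab1 and H2-Eb1 above 0 and Cd74 to -0.0016.

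What the chains shared was a spread between mice of the same group. Within groups, the SD of log2(CPM + 0.5) was 0.606 for Cd74, 0.734 for H2-Aa, 0.735 for H2-Ab1 and 0.733 for H2-Eb1, against a median of 0.138 over all genes tested. Only 197 of the 19782 genes had a larger spread than Cd74 and 102 a larger one than H2-Ab1. For Ciita the SD was 0.241, at the 78.4th percentile, and for H2-DMa it was 0.10, at the 34.2nd. The highest library was 4.00 times the lowest for Cd74, 4.34 times for H2-Aa, 5.39 times for H2-Ab1 and 5.86 times for H2-Eb1, but 1.86 times for Ciita and 1.22 times for H2-DMa. Without Scr replicate 4 these ratios were 2.91, 3.36, 3.30 and 3.96 for Cd74, H2-Aa, H2-Ab1 and H2-Eb1. Without Ant-134 replicate 3 they were 2.66, 4.05, 4.04 and 3.52 in the same order.

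**Figure D3:**
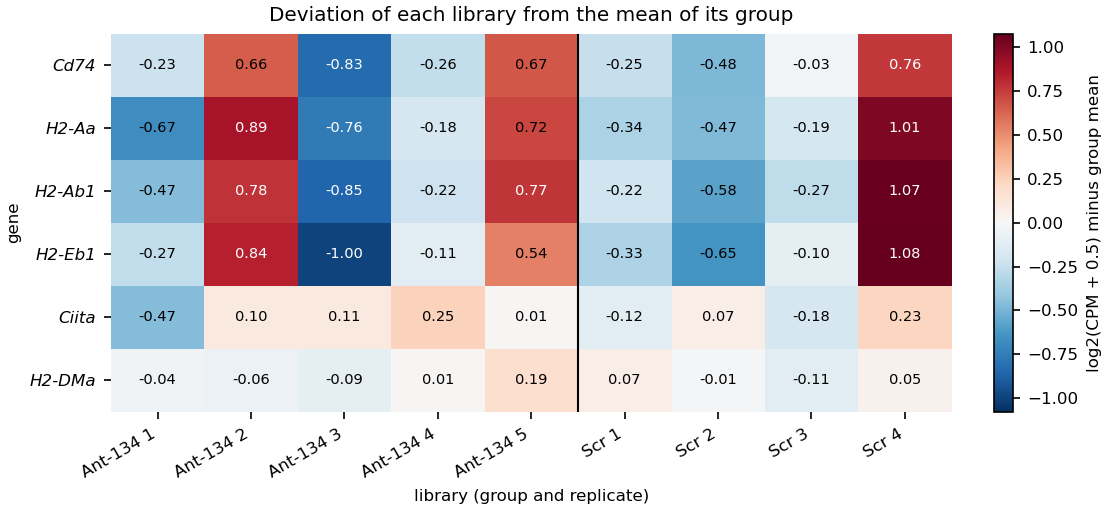
Deviation of each library from the mean of its own group in log2(CPM + 0.5), for the 6 MHC class II genes (rows) and 9 libraries (columns), with red above and blue below the group mean. Cd74, H2-Aa, H2-Ab1 and H2-Eb1 are above it in Ant-134 replicates 2 and 5 and Scr replicate 4 and below it in the other 6 libraries, and Ciita and H2-DMa stay within 0.47 of it.

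The 4 variable genes were high and low in the same mice. Over the 9 libraries, Cd74 correlated with H2-Ab1 at r = 0.981 (rho = 0.950), with H2-Eb1 at r = 0.977 (rho = 0.917) and with H2-Aa at r = 0.954 (rho = 0.933). The two-sided exact permutation p values of r, adjusted over the 5 relations computed, were 7.35e-05 for all 3 chains, from raw p values of 3.86e-05, 4.41e-05 and 2.76e-05, and the adjusted exact p values of rho were 0.00176, 0.00219 and 0.00187. Without the 2 libraries farthest from the median of Cd74, Ant-134 replicate 3 and Scr replicate 4, r was 0.964, 0.934 and 0.929 over 7 libraries. After the mean of each group was subtracted, r was 0.980 for H2-Ab1, 0.980 for H2-Eb1 and 0.961 for H2-Aa.

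H2-DMa and Ciita did not share this pattern to a degree that passed the test. For H2-DMa r was 0.540 and rho 0.533 (exact p = 0.133 and 0.148, adjusted 0.166 and 0.184), and r was 0.159 without the 2 farthest libraries. Leaving out Ant-134 replicate 2 alone raised it to 0.738, with an unadjusted exact p of 0.0363. For Ciita r was 0.258 and rho 0.050 (exact p = 0.511 and 0.912, adjusted values the same), and r was 0.138 without the 2 farthest. The 9 points come from libraries of different depth and from both groups, and the scale of each library enters both genes of a pair.

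**Figure D4:**
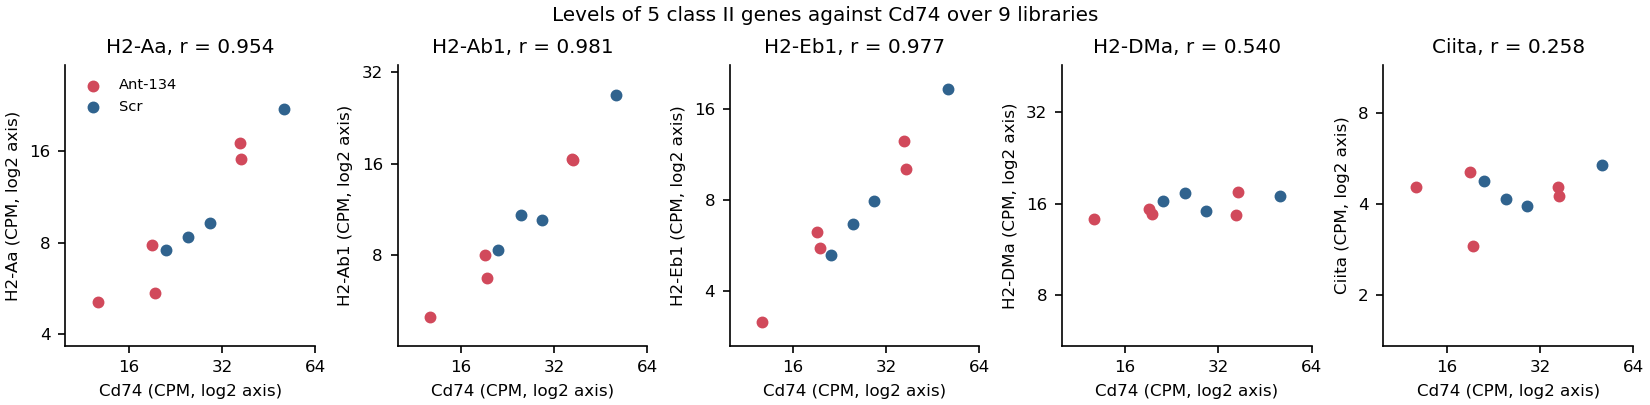
Level of 5 MHC class II genes against Cd74 in the 9 libraries (Ant-134 red, n = 5, and Scr blue, n = 4), in CPM on log2 axes that span the same fold range vertically in each panel, with Pearson's r of log2(CPM + 0.5). H2-Aa, H2-Ab1 and H2-Eb1 climb with Cd74, while H2-DMa and Ciita stay nearly flat.

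Within a library the chains kept close proportions. The FPKM ratio of H2-Aa to its partner H2-Ab1 lay between 0.676 and 0.901 and that of H2-Eb1 to H2-Ab1 between 0.850 and 1.15 over the 9 mice. Cd74 was 2.18 to 3.38 times H2-Ab1. By comparison the ratio of H2-DMa to H2-Ab1 ran from 0.626 in Scr replicate 4 to 2.84 in Ant-134 replicate 3, and that of Ciita to H2-Ab1 from 0.034 to 0.156 in the same pair of libraries. The ratios did not differ between groups beyond their spread, with two-sided exact p values of 0.103 for H2-Aa, 0.452 for H2-Eb1, 0.754 for Cd74, 0.524 for H2-DMa and 0.50 for Ciita, each to H2-Ab1.

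The genes outside the 6 whose log2(CPM + 0.5) was most like that of Cd74 over the 9 libraries, among 19776 ranked, were Nlgn2, a postsynaptic adhesion molecule of inhibitory synapses (r = 0.966), Foxd2 (0.956) and Cebpa, a transcription factor of myeloid cells and adipocytes (0.955), followed by Efnb1, Gen1, Tigd5, Crtac1, Dgat2l6, Ccdc61 and Ppp1r8 (0.938 to 0.918). No ranked gene had a higher r than H2-Ab1 or H2-Eb1, and 3 had a higher r than H2-Aa. After group means were subtracted the top genes were Nlgn2, Zfp772, Vps26a, Cebpa, Foxd2, Opa3, Nkain2, Gm45844, Zfp109 and Rgs12 (0.968 to 0.939), of which 3 are in the first list. Most of these moved little in level. Nlgn2 lay between 321 and 348 CPM in all 9 libraries and Cebpa between 19.4 and 27.2 CPM, and Foxd2 rested on 1 to 29 counts. They are named as a description over 9 points ranked from many genes.

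Of the other class II chains and peptide editors, 3 of the 7 genes listed passed the filter and none of those 3 passed the unadjusted threshold (edgeR 0). H2-DMb1, the beta subunit that pairs with H2-DMa, had 3.08 ± 0.452 CPM (Ant-134) and 3.45 ± 1.15 CPM (Scr), and its log2 fold change was -0.16 (standard error 0.20, unadjusted p = 0.422). It was highest in Scr replicate 4, at 5.15 CPM, and lowest in Ant-134 replicate 3, at 2.49 CPM, the same ends as Cd74, to which its r was 0.811. H2-DMb2, the second copy of that gene, had 8 to 27 counts per library (log2 fold change -0.42, standard error 0.33, unadjusted p = 0.216), and since the copies are similar in sequence their counts are uncertain. H2-Ob, part of the inhibitor of the editor in B cells, had 6 to 20 counts (log2 fold change -0.57, standard error 0.43, unadjusted p = 0.212), and it passed only without Scr replicate 2 (-0.89, unadjusted p = 0.0365). H2-Oa and H2-Eb2 had at most 6 and 5 counts and were not tested, and H2-Ea-ps was at 0 counts in all 9 libraries.

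The factors that bind the X and Y boxes did not differ between groups beyond the spread between mice. All 7 of Rfx5, Rfxap, Rfxank, Nfya, Nfyb, Nfyc and Creb1 passed the filter, 0 passed the unadjusted threshold by edgeR, and their log2 fold changes lay between -0.035 for Nfya and 0.12 for Rfxank, with a median of 0.0027. Rfx5, a subunit of the RFX complex, was at 16.2 ± 1.42 CPM (Ant-134) and 16.2 ± 0.627 CPM (Scr). Creb1, which binds the X2 box, was at 48.9 ± 2.46 and 48.8 ± 1.70 CPM.

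Upstream of Ciita, 10 of 11 genes of the interferon gamma pathway passed the filter and 1 was lower at the unadjusted threshold, with a median log2 fold change of -0.11. That gene was Irf1, a transcription factor induced by interferon, at 10.1 ± 1.87 CPM against 12.3 ± 1.49 CPM (log2 fold change -0.28, standard error 0.13, unadjusted p = 0.0493, Benjamini-Hochberg adjusted p = 0.998, edgeR's quasi-likelihood test). Irf1 was at 11.4, 11.1, 7.58, 8.78 and 11.9 CPM in Ant-134 replicates 1 to 5 and at 10.3, 12.3, 13.7 and 13.1 CPM in Scr replicates 1 to 4, so the groups overlapped, and its exact permutation p was 0.127. The call was lost without any one of Ant-134 replicates 3 and 4 and Scr replicates 2, 3 and 4, where the unadjusted edgeR p ran from 0.0792 to 0.135, and with DESeq2's size factors (unadjusted p = 0.0547), limma on log2(FPKM + 1) (unadjusted p = 0.0736) and log2(FPKM + 0.1) (unadjusted p = 0.0748), and with the replicate number as a block (unadjusted p = 0.0533). Interferon gamma itself, Ifng, had 1 count in Scr replicates 2 and 3 and 0 in the other 7 libraries.

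The receptor and kinase genes Ifngr1, Ifngr2, Jak1 and Jak2 had log2 fold changes from 0.020 to 0.091. Irf8, a transcription factor of myeloid cells, was at -0.27 (unadjusted p = 0.0616), Spi1, the myeloid factor PU.1, at -0.22 (unadjusted p = 0.0641) and Socs1, a feedback inhibitor, at -0.39 (unadjusted p = 0.165). Without Ant-134 replicate 1, Spi1 (-0.25) and Socs1 (-0.66) passed by edgeR, both lower with Ant-134. Spi1 also passed without Ant-134 replicate 5 (-0.29) or Scr replicate 4 (-0.27), and Irf8 without Ant-134 replicate 4 (-0.31) or Scr replicate 3 (-0.33) or 4 (-0.32). With no filter Irf8 and Spi1 passed, and with the replicate block Spi1.

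**Figure D5:**
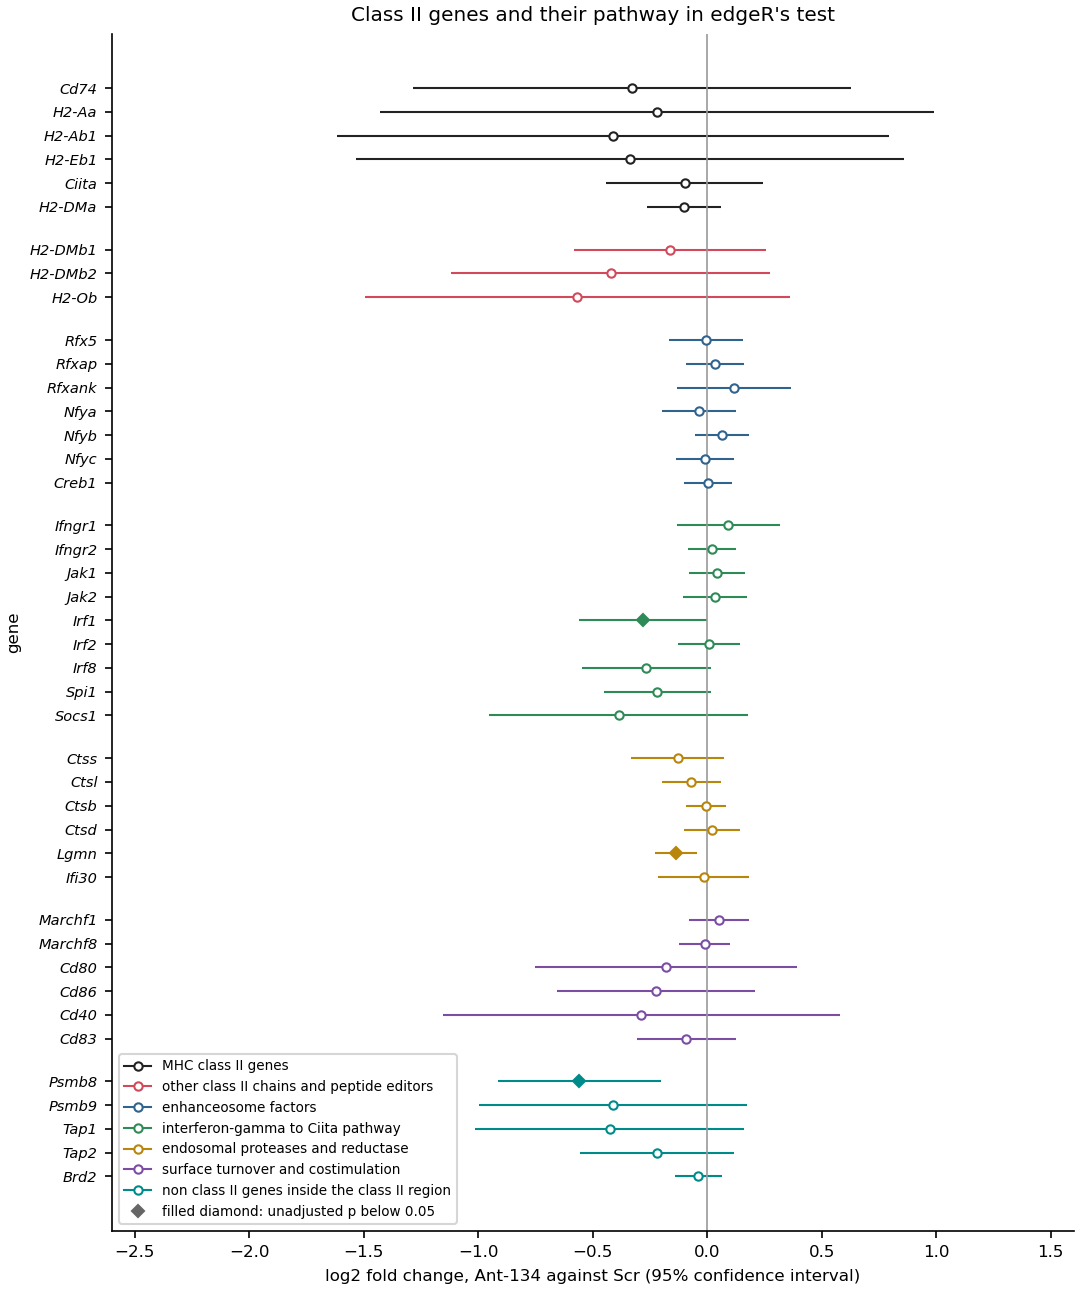
Log2 fold change of Ant-134 against Scr with its 95% confidence interval for the 6 MHC class II genes (black) and tested genes of 6 pathway lists (colours), from edgeR's quasi-likelihood test. Filled diamonds mark an unadjusted p value below 0.05, which only Irf1, Lgmn and Psmb8 reached, and the intervals of H2-Aa, H2-Ab1 and H2-Eb1 are the widest among the class II genes.

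All 6 genes listed for the endosomal proteases that prepare peptides and trim the invariant chain, with the thiol reductase Ifi30, passed the filter, and 1 was lower. Lgmn, the asparagine endopeptidase legumain, was at 148, 141, 149, 134 and 139 CPM in Ant-134 replicates 1 to 5. It was at 161, 158, 155 and 152 CPM in Scr replicates 1 to 4 (two-sided exact permutation p = 0.0159). Its log2 fold change was -0.14 (standard error 0.042, unadjusted p = 0.00593, Benjamini-Hochberg adjusted p = 0.998, edgeR), and it stayed between -0.15 and -0.12 whichever mouse was left out. Ctss, the protease that makes the last cut in the invariant chain, was at 82.0 ± 11.3 and 89.7 ± 6.39 CPM (log2 fold change -0.13, standard error 0.092, unadjusted p = 0.186), and it passed without Ant-134 replicate 5 (-0.20) and with the replicate block (-0.20). Microglial markers, summed over 8 genes, were at 261 to 325 CPM (Ant-134) and 320 to 371 CPM (Scr). Of the 8, 2 were lower at edgeR's unadjusted threshold, Csf1r among them, against 2.69% of all genes tested. The part of microglia in the value of Lgmn was not tested.

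Of the surface turnover and costimulation genes, 6 of 8 listed symbols were in the table, all 6 passed the filter and 0 passed the unadjusted threshold by edgeR. Marchf1, the ligase that removes class II molecules from the cell surface, was at 37.7 ± 2.67 CPM (Ant-134) and 36.3 ± 2.10 CPM (Scr), with a log2 fold change of 0.052 (unadjusted p = 0.415). Cd86, a costimulatory ligand of antigen-presenting cells, was at 2.00 ± 0.503 and 2.34 ± 0.455 CPM (log2 fold change -0.23, unadjusted p = 0.283).

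Of 6 genes without a class II product that lie in the same region, 5 passed the filter and 1 was lower, Psmb8, a subunit of the immunoproteasome that serves class I presentation. Psmb8 was at 9.35, 6.91, 4.66, 6.16 and 5.33 CPM in Ant-134 replicates 1 to 5 and at 8.96, 8.795, 9.94 and 10.6 CPM in Scr replicates 1 to 4, overlapping only through Ant-134 replicate 1. Its log2 fold change was -0.56 (standard error 0.17, unadjusted p = 0.00477, Benjamini-Hochberg adjusted p = 0.998, edgeR). Psmb9, Tap1 and Tap2 were at -0.41, -0.43 and -0.22 and did not pass. All 3 passed without Ant-134 replicate 1 (-0.61, -0.70 and -0.40), where 4 of the 5 genes were lower. In that fit 704 of all genes tested were lower, against 533 with every mouse kept. The mouse left out had the highest Psmb9, Tap1 and Tap2 of the Ant-134 group, at 4.69, 17.4 and 14.6 CPM.

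The class I genes give a measure of the other arm of presentation in the same libraries. B2m, the light chain of class I, was at 80.5 ± 27 CPM (Ant-134) and 123 ± 21.8 CPM (Scr), and its log2 fold change was -0.61 (standard error 0.25, unadjusted p = 0.0435, Benjamini-Hochberg adjusted p = 0.998, edgeR). The heavy chains H2-K1 and H2-D1 were at -0.83 (unadjusted p = 0.0180) and -0.79 (unadjusted p = 0.00265). B2m was highest in Scr replicate 2, at 150 CPM, where Cd74 was lowest in its group, and it was at 65.7 CPM in Ant-134 replicate 5, where Cd74 was highest in its group. Both genes were lowest of all 9 libraries in Ant-134 replicate 3, B2m at 54.6 CPM. The difference between a class II gene and B2m was tested as the log2 ratio within each library, an analysis chosen after the data were seen. The ratio was higher in the Ant-134 group by 0.23 for H2-Ab1 to 0.55 for H2-DMa, and none of the 6 differences passed (two-sided exact permutation p from 0.0873 for H2-DMa to 0.754 for H2-Ab1), so a difference in response between class II genes and B2m was not shown.

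Markers of the cells that can carry class II molecules were read in the same libraries. Of 8 dendritic cell genes, 7 passed the filter and 1 was lower (Itgax, 10 to 42 counts per library), Cd209a had at most 2 counts, and the sum was 21.1 to 24.0 CPM (Ant-134) and 19.9 to 23.2 CPM (Scr). All 7 border macrophage genes passed and 1 was lower (Ms4a7), with sums of 14.3 to 21.8 and 15 to 21.99 CPM. In the libraries with the most class II RNA, the dendritic cell sum was 24.0 CPM in Ant-134 replicate 2 and 23.2 CPM in Scr replicate 4, each the highest of its group, and 22.7 CPM in Ant-134 replicate 5. Most of that sum came from Flt3 (6.34 to 10.97 CPM) and Zbtb46 (8.93 to 11.6 CPM), while each of the other 6 genes stayed at or below 1.23 CPM. Over the 9 libraries r to Cd74, given as a description, was -0.24 for Flt3, 0.46 for Zbtb46, 0.58 for Itgax and 0.15 for Clec9a. It was 0.13 for Xcr1, 0.23 for Clec10a, 0.79 for Ccr7 (3 to 33 counts) and 0.40 for the whole sum. For the other summed lists r was 0.66 (meningeal fibroblasts), 0.42 (monocytes and neutrophils), 0.22 (border macrophages), 0.20 (B cells) and 0.19 (T cells). It was -0.076 for microglial, -0.44 for choroid plexus, -0.50 for erythrocyte and -0.69 for neuronal genes. In the 3 libraries with the most class II RNA the border macrophage sum was 18.9 CPM in Ant-134 replicate 2, 21.8 CPM in Ant-134 replicate 5 and 15 CPM in Scr replicate 4, the last the lowest of its group. The part of these cells in the spread of the class II genes was not tested.

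Lymphocyte markers were low, with at most 48 counts in a library (Trbc2). The 4 B cell genes summed to 0.457 to 1.07 CPM (Ant-134) and 0.909 to 1.64 CPM (Scr), with 2 tested and the defining gene Ms4a1 at 0 to 5 counts. The highest sum of the Scr group was in replicate 4, the mouse with the most class II RNA, but the highest of the Ant-134 group was in replicate 3, the mouse with the least, and Ant-134 replicates 2 and 5 were at 0.728 and 0.596 CPM. The 7 T cell genes summed to 1.13 to 2.26 and 1.37 to 2.63 CPM, with 3 tested. Monocyte and neutrophil genes summed to 16.7 to 51.2 and 36.5 to 51.0 CPM, with none of the 5 called by edgeR, and the lowest sum was in Ant-134 replicate 3, the mouse with the least class II RNA. The highest sums were in mice with low class II RNA. They were 51.2 and 50.8 CPM in Ant-134 replicates 1 and 4 and 51.0 CPM in Scr replicate 2. Ant-134 replicates 2 and 5 were at 42.2 and 40.5 CPM and Scr replicate 4 at 43.9 CPM. The genes of this list did not go together. Over the 9 libraries r to Cd74 was 0.66 for Ly6c2, 0.62 for Ccr2 and 0.60 for Plac8, but -0.17 for S100a8 and -0.27 for S100a9. These r values are a description, and the part of these cells was not tested.

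Choroid plexus and blood varied between mice in another order than the class II genes. Choroid plexus genes summed to 66.6 to 2527 CPM (Ant-134) and 77.6 to 1997 CPM (Scr), with the lowest Scr value in replicate 4, and erythrocyte genes to 64.6 to 377 and 40.5 to 86.1 CPM, with the highest in Ant-134 replicate 3. Meningeal fibroblast genes were at 80.7 to 141 and 122 to 163 CPM. Of the 5 genes, 4 were lower with Ant-134 at edgeR's unadjusted threshold (Col1a1, Col1a2, Igf2 and Slc6a13), against 2.69% of all genes tested. The Benjamini-Hochberg adjusted p values of these 4 ran from 0.987 to 0.998 (edgeR). The sum over the list was 141 CPM in Ant-134 replicate 2, the highest of its group, and 80.7 CPM in Ant-134 replicate 3. It was 154 CPM in Scr replicate 4, the next to highest of its group. The highest of all 9 was Scr replicate 2 at 163 CPM, where Cd74 was lowest in its group, and Ant-134 replicate 5, with the most Cd74 of its group, was at 107 CPM. The part of meningeal tissue in the class II values was not tested.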

How the data were processed

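Poly-A-selected hippocampal RNA of 9 mice was sequenced in paired-end mode. Per the submitters' processing notes and the paper, the authors used CASAVA 1.8, aligned reads to mm10 (GRCm38) with HISAT2 2.0.5 and counted them per gene with featureCounts 1.5.0-p3. They deposited the counts without normalisation and a table of FPKM values. For the main analysis edgeR 4.0.16 was run on the counts in R 4.3.3 (filterByExpr with a minimum count of 10, TMM scaling, robust quasi-likelihood test, treatment as the only term, Benjamini-Hochberg adjustment over all genes tested), and the unadjusted threshold of 0.05 is that of the study. The functions were checked on simulated counts. CPM were computed on the TMM-scaled library sizes and log2 values with 0.5 CPM added. The exact tests used Python 3.11.15 with scipy 1.17.1.

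Results were recomputed with unfiltered DESeq2 1.42.0, with size factors of DESeq2 in edgeR, with no filter, with genes of 10 or more counts in every library, with limma 3.58.1 on the log2 of the deposited FPKM plus 1 or 0.1 (mean FPKM of at least 0.1), with the replicate number as a block, and leaving out each mouse. On the FPKM scale with a pseudocount, changes of low genes are understated. Libraries of 1 group differed from each other by more than counting noise (chi-square per gene 7.56 to 19.0). The genes named are the 6 class II genes, those of the pathway lists, the 10 genes most like Cd74 by each measure, and markers needed to state a range. B2m, H2-K1 and H2-D1 are no part of that rule and were added with their values known. The class II genes and all lists were chosen with earlier results of these data known. RefSeq promoter entries of GRCm38.p6 were matched by symbol, and promoters of the other 4 class II genes are not shown. Values of some listed genes are not reported here, although counts and sums over their lists include them. Highest-to-lowest ratios without single mice, ratios to B2m and correlations under other scalings were chosen after seeing the data.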

Additional observations from a re-analysis of the deposited data

Results flagged for a closer look

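Values of the class II genes, the pathway genes and the summed marker lists were screened for a mouse far from the others of its group, by the gap to the nearest mouse over the range of the group. Of 106 groups of values, 10 were marked, where chance marks about 1 in 20 (5.3). Scr replicate 4 stood above its group for H2-Aa (22.1 CPM, others 7.59 to 9.33), H2-Ab1 (27.1 CPM, others 8.32 to 10.8), H2-DMb2 (0.791 CPM, others 0.499 to 0.520) and the B cell markers (1.64 CPM summed, others 0.909 to 1.03). Scr replicate 1 did so for Irf8 (17.05 CPM). Ant-134 replicate 1 stood above its group for Ctsb (534 CPM), Tap1 (17.4 CPM), Tap2 (14.6 CPM) and the choroid plexus markers (2527 CPM summed). Ant-134 replicate 3 did so for the erythrocyte markers (377 CPM summed).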

How the results depend on the processing

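The count of class II genes with an unadjusted p value below 0.05 stayed at 0 in all 16 alternatives. The 6 fold changes kept their sign in the 7 alternatives on all mice, and all correlations with Cd74 kept their side of the threshold under other scalings. Leaving out each mouse, log2 fold changes ran from -0.50 to 0.27 for H2-Aa, -0.64 to 0.11 for H2-Ab1, -0.61 to 0.20 for H2-Eb1 and -0.17 to 0.013 for Ciita, and r to Cd74 from -0.027 to 0.41 for Ciita and 0.35 to 0.74 for H2-DMa. These pathway genes also crossed 0 when a mouse was left out: H2-DMb1 (-0.28 to 0.096), Rfx5 (-0.046 to 0.039), Nfya (-0.11 to 0.032), Nfyc (-0.057 to 0.016), Creb1 (-0.021 to 0.025), Ifngr2 (-0.016 to 0.046), Jak2 (-0.017 to 0.064), Irf2 (-0.032 to 0.035), Ctsb (-0.028 to 0.0039), Ctsd (-0.012 to 0.058), Ifi30 (-0.077 to 0.036), Marchf8 (-0.048 to 0.020), Cd40 (-0.56 to 0.093) and Brd2 (-0.066 to 0.0022). The cause was not tested.

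The labels do not say that replicate numbers pair mice. Deviations of same-numbered mice correlated at -0.15, -0.071, -0.048 and 0.053, and those of differently numbered mice at -0.28 to 0.29. These values cannot decide whether same-numbered mice were handled together. With the replicate block the signs of Irf2 (-0.0034), Ctsd (-0.0058), Ifi30 (0.00068) and Marchf8 (0.019) turned, 342 genes were higher and 466 lower, and 2 passed adjustment. Over all genes, the count higher was 294 against 564 without a filter, 450 with limma on log2(FPKM + 1), 471 on log2(FPKM + 0.1) and 194 to 386 leaving out each mouse. The count lower was 533 against 1211 without a filter. Genes past adjustment were 0 against 16 in DESeq2, 14 without a filter and 0 to 17 leaving out each mouse, the most without Ant-134 replicate 1. Each class II gene had at least 89 counts in every library, and genes of a few counts per library, such as H2-Oa and H2-Eb2, could not be tested at this depth.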
